A study of Homo sapiens with 18 samples.

Results

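The genes described here carry a cell from G1 into S phase: they license origins of DNA replication, start and copy the replication forks, supply deoxynucleotides and switch on the programme as a whole. They were chosen by name, and each of the 45 was looked up by its NCBI Gene ID in the table of raw read counts. All 45 were present among the 28395 gene IDs of that table. The study gave PC-3 cells, an established line from human prostate cancer, a brief pulse of fluid shear stress and asked how the cells changed in the hours that followed.

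Sheared cells were driven through a syringe and a fine needle, and static cells of the same pool waited in suspension meanwhile. Sheared 3 h, static 3 h, sheared 12 h, static 12 h, sheared 24 h and static 24 h cells made up 6 groups of 3 libraries. What they shared was detachment from the dish, wells coated with poly-HEMA that give no hold, and DMEM with insulin, transferrin, selenium and albumin, a medium for which no serum is listed. Before the experiment the cells had grown in DMEM/F12 with fetal bovine serum. RNA came from the cytosol only, after a mild detergent lysis that leaves nuclei behind. At each time, libraries that carry the same replicate number were made from a shared pool, and no pool served more than 1 time. All pools were of 1 cell line. For shear, the p-values measure how far the sheared to static difference varied from pool to pool, with all times sharing the estimate. The p-values and SE of shear at 1 time are thus no measure of the spread among the pools of that time alone. For static cells over time, the p-values measure the spread between such pools.

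As background, an origin is licensed in G1 when the origin recognition complex, CDC6 and CDT1 load the MCM2-7 helicase onto DNA, and geminin blocks CDT1 once S phase is under way. CDC45, the GINS complex and MCM10 turn the loaded helicase into a moving fork, which polymerases alpha, delta and epsilon copy with the PCNA clamp and its RFC loader. E2F1 and E2F2 activate many of these genes, E2F8 represses them, and transcripts of the group are low in cells that have left the cycle. In RNA of whole cultures, fewer cells in the cycle and less RNA per cell cannot be told apart.

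The libraries held between 16400487 and 25862360 counts, which sets the precision for the scarcer genes. Levels below are given as CPM, each count divided by the library total and put on a common scale, with TMM factors, in the order of replicates 1, 2 and 3, unless a sum of genes is said to use total counts. The epithelial markers of the line were abundant in all 18 libraries, with KRT8 between 721 and 2786 CPM. KLK2, made by androgen-dependent prostate cells, was at 0 in all of them, and KLK3 reached at most 0.0680 CPM. The 8 blood cell markers summed to at most 2.70 CPM. The 9 markers of fibroblasts and endothelial cells summed to between 30.4 and 129 CPM, most of it PECAM1 and COL1A1. That sum was 48.5 to 49.5 CPM in sheared and 30.4 to 38.2 CPM in static libraries at 3 h, 66.1 to 76.7 CPM in sheared and 111 to 129 CPM in static libraries at 12 h, and 65.5 to 102 CPM in sheared and 109 to 129 CPM in static libraries at 24 h. Sheared libraries thus lay above static ones at 3 h and below them later. COL1A2, PDGFRB, DCN, VWF and CDH5 stayed at or under 0.684 CPM in every library. The 7 markers of such prostate cells, led by SLC45A3 and TMPRSS2, summed to 231 to 251 CPM in sheared 24 h libraries and 303 to 386 CPM in static 24 h libraries. The part of either list in the results was not tested. Sheared 24 h replicate 3 stood apart from the other libraries with a TMM factor of 0.721, against 0.888 to 1.11 elsewhere. The labels give the 3 h libraries another batch date than the 12 h and 24 h libraries, so 3 h and later times differ in batch as well as in time.

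Promoters of the group were read first, since E2F factors bind near the start of many such genes. RefSeq promoters of GRCh38.p14, 250 bases before to 50 bases after the annotated start, were on hand for 41 of the 45 genes, and those of MCM4, MCM5, GINS4 and E2F8 were not used here. The words searched for an E2F element were TTTCCCGC or TTTCGCGC or TTTGCCGC or TTTGGCGC on either strand. One of them was present in 23 of the 41 promoters (56.1%), against 908 of all 27305 promoters of the same length (3.33%). Origin licensing genes held a match in 6 of 9 promoters, helicase activation genes in 3 of 5, polymerase, clamp and loader genes in 8 of 15, nucleotide synthesis genes in 1 of 5, E2F genes in 2 of 2 and chromatin and ubiquitin ligase genes in 3 of 5. There were 31 matches in all, 25 of them within 100 bases of the start, and 6 promoters held at least 2, counting matches on opposite strands that overlap. The CCAAT word of NF-Y stood in 23 of the 41 promoters (56.1%), against 35.7% of all, and TTTGAA, the CHR element of many mitosis genes, in 1 (2.44%), against 15.4% of all. A match is a run of letters and no evidence of binding.

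Promoters of 4 genes are printed in full, with the E2F words in capitals, because these genes span the results below. CDT1 had the smallest p at 24 h, RRM2 and HELLS had the largest fold changes at that time, and MCM6, a helicase subunit with 4 matches, did not pass the test there. The regions are chr16:88803539-88803838 on the plus strand for CDT1, chr10:94545538-94545837 on the plus strand for HELLS, chr2:135876394-135876693 on the minus strand for MCM6 and chr2:10122489-10122788 on the plus strand for RRM2, whose promoter held none of the words.
CDT1: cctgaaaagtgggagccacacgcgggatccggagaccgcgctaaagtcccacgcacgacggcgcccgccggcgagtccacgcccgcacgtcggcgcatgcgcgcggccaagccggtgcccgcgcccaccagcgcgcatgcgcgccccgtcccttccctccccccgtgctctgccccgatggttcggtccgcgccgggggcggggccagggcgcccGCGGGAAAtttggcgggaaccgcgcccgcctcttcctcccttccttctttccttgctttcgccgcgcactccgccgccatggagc
HELLS: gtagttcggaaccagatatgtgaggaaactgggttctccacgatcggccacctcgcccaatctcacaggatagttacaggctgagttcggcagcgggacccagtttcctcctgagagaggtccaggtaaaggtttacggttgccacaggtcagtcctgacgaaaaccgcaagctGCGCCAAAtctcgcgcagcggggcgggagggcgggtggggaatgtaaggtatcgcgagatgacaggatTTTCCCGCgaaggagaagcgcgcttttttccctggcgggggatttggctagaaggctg
MCM6: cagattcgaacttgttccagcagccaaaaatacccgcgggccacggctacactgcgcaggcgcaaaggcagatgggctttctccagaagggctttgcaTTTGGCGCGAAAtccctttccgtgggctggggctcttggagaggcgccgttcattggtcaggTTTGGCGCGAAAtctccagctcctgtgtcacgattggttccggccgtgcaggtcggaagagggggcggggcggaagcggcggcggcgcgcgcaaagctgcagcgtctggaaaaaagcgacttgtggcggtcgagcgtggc
RRM2: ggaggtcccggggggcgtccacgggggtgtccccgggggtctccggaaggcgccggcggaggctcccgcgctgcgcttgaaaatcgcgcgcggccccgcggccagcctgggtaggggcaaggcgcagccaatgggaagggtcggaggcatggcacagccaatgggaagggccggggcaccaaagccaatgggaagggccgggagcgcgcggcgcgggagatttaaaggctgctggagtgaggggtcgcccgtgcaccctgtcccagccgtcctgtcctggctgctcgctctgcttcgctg

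In CDT1 the match began 35 bases before the start, and in HELLS the matches began 76 and 8 bases before it. In MCM6 the 4 matches formed 2 overlapping pairs, beginning 152, 148, 90 and 86 bases before the start.

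**Figure D1:**
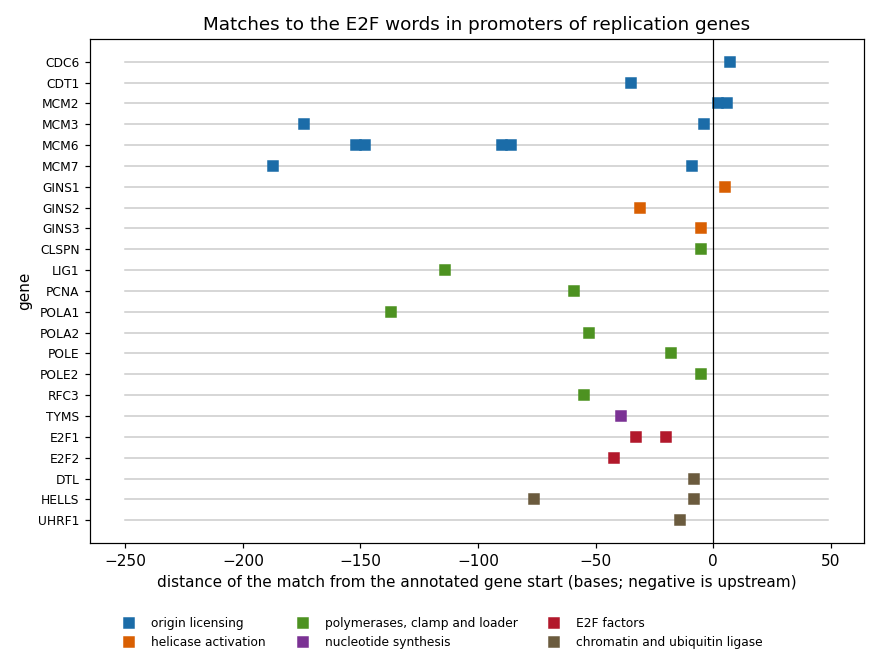
Position of each match to the E2F words in the promoters of the 23 genes that hold one, as distance in bases from the annotated start (x axis, negative upstream), with 1 row per gene and colours for the role. Of 31 matches, 25 lie within 100 bases of the start, and the farthest upstream lies at -187 bases.

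The summed RNA of the group was lower at each later time in suspension in static cells, and at 24 h it was higher in the sheared library of all 3 pairs. The 3 h libraries also differ from the later ones in batch date. Summed over the 45 genes, transcripts took 3712 to 4044 CPM of all counts in sheared 3 h libraries and 3909 to 4263 CPM in static 3 h libraries. At 12 h the sums were 1730 to 1922 CPM in sheared libraries and 1546 to 1599 CPM in static libraries. At 24 h they were 699, 1973 and 1454 CPM in sheared libraries, against 611, 712 and 719 CPM in static libraries, so that the first sheared library lay just below the upper static ones and the others well above all of them. These sums use total counts. The 3 h groups overlapped and the 12 h groups did not.

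**Figure D2:**
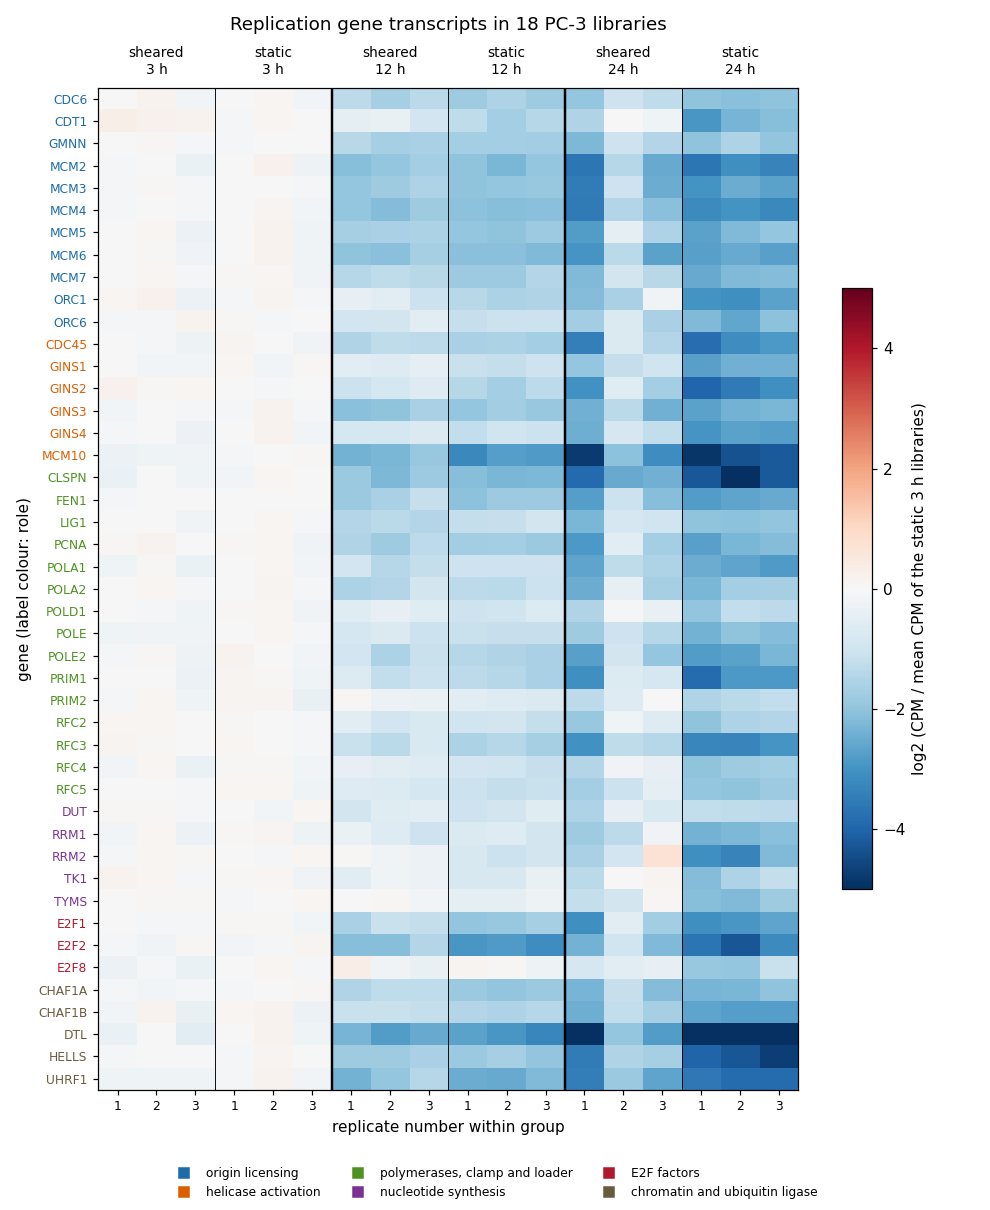
Level of the 45 genes in each of the 18 libraries as log2 of CPM over the mean of the static 3 h libraries (colour), with genes in rows, grouped by role, and libraries in columns, grouped by treatment and time. White is the static 3 h level, deeper blue is lower, and the darkest blue also stands for values past the end of the scale. Sheared 24 h replicates 2 and 3 are paler than the other 24 h libraries for most genes.

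At 24 h, replication transcripts were higher in sheared cells across every role. Of the 45 genes, all tested, 35 (77.8%) rose and none fell at an adjusted p below 0.05 in edgeR's quasi-likelihood test, against 9.13% of all 15189 genes tested that were higher and 8.07% that were lower. All 45 log2 fold changes were positive, from 0.29 to 2.26 with a median of 0.92, while the median of all genes was -0.02. The genes that did not pass were MCM3, MCM4, MCM5, MCM6, GMNN, GINS3, PCNA, POLA2, DUT and CHAF1A. In 32 genes the sheared library was higher in all 3 pairs, and in 19 the sheared group lay wholly above the static group. No share of all genes is given beside these counts, which describe the libraries only. With total counts in place of TMM factors, all genes shifted down, to a median of -0.18, and the median of the 45 genes lay 0.94 above that. In that scaling 29 genes rose, and CDC6, E2F1, FEN1, LIG1, MCM2 and POLE2 did not pass. The SE and p-values given for 24 h use a spread shared by all times, while a fit of the 24 h libraries alone called 20 of the 45. The share of all genes called is not given for either fit.

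**Figure D3:**
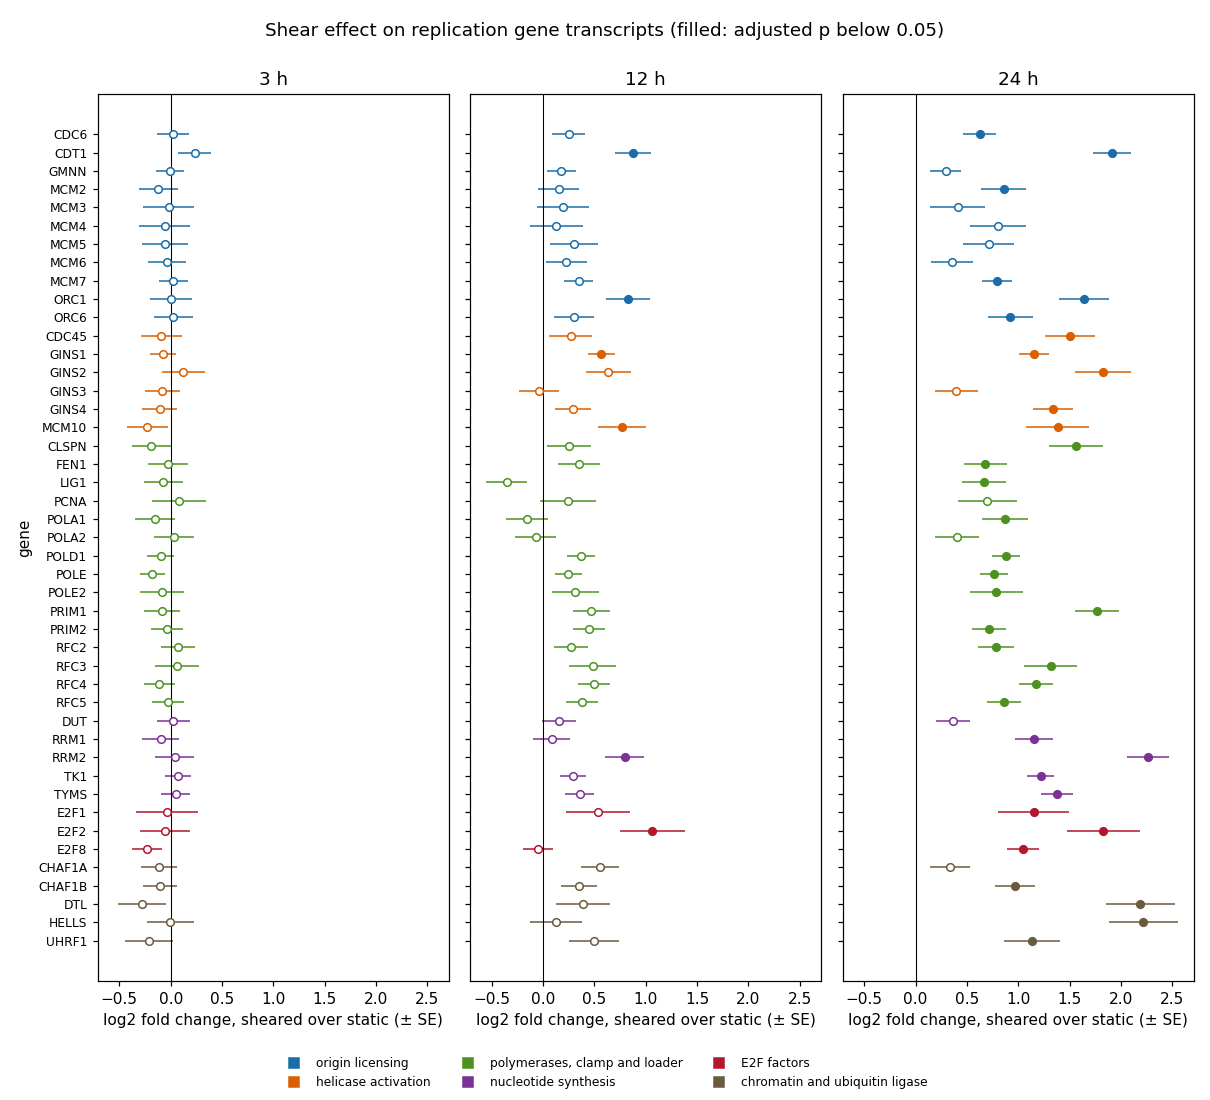
Log2 fold change of sheared over static cells at 3 h, 12 h and 24 h (panels) for the 45 genes (rows, coloured by role). Bars are 1 SE, from a spread shared by all times, and filled points have an adjusted p below 0.05. No point is filled at 3 h, 6 are at 12 h and 35 at 24 h, where all 45 lie right of 0.

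Of the 11 origin licensing genes, 6 rose at 24 h and the median log2 fold change was 0.79. CDT1, the loader of the helicase, had 11.7, 32.3 and 28.7 CPM in sheared 24 h libraries, against 4.37, 6.55 and 7.47 CPM in static 24 h libraries. Every sheared library exceeded every static one, and the log2 fold change was 1.91 ± 0.19 (SE, adjusted p = 2.81e-06). ORC1, the largest subunit of the origin recognition complex, had 7.68, 11.03 and 30.2 CPM in sheared 24 h libraries, against 4.31, 4.09 and 5.37 CPM in static 24 h libraries. Its groups did not overlap either, with the third sheared library highest, and it rose by 1.65 ± 0.24 (SE, adjusted p = 2.25e-04). ORC6, another subunit, rose by 0.92 ± 0.22 (SE, adjusted p = 0.00802). CDC6, which joins CDT1 at the origin, had 19.5, 36.5 and 30.5 CPM in sheared 24 h libraries, against 18.6, 17.6 and 18.5 CPM in static 24 h libraries. The first sheared library stood only just above the static ones, and CDC6 rose by 0.62 ± 0.17 (SE, adjusted p = 0.0152).

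The 6 subunits of the MCM2-7 helicase moved less evenly. MCM2 had 10.2, 46.6 and 21.7 CPM in sheared 24 h libraries, against 10.4, 15.02 and 12.4 CPM in static 24 h libraries. The second sheared library was the highest and the first was below the lowest static one, and MCM2 rose by 0.86 ± 0.22 (SE, adjusted p = 0.0149). MCM7 rose by 0.79 ± 0.15 (SE, adjusted p = 0.00132). MCM3, MCM4, MCM5 and MCM6 had log2 fold changes of 0.41, 0.80, 0.71 and 0.35 and did not pass the test (adjusted p = 0.326, 0.0690, 0.0693 and 0.260). GMNN, which encodes geminin, the inhibitor of CDT1, had 12.2, 28.1 and 21.1 CPM in sheared 24 h libraries, against 14.2, 19.6 and 14.7 CPM in static 24 h libraries. These groups overlapped, and GMNN did not pass, with a log2 change of 0.29 ± 0.15 (SE, adjusted p = 0.191), the smallest of the 45.

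Of the 6 genes that activate the helicase, 5 rose, with a median of 1.36. GINS2, GINS1 and GINS4 encode subunits of the GINS complex, and in all 3 the sheared libraries lay above the static ones. GINS2 had 3.87, 20.8 and 9.90 CPM in sheared 24 h libraries, against 2.04, 2.75 and 3.84 CPM in static 24 h libraries, and rose by 1.83 ± 0.27 (SE, adjusted p = 2.25e-04). GINS1 had 12.4, 20.2 and 23.4 CPM in sheared 24 h libraries, against 7.12, 8.71 and 8.75 CPM in static 24 h libraries, and rose by 1.15 ± 0.14 (SE, adjusted p = 3.23e-05). GINS4 had 7.20, 22.00 and 16.6 CPM in sheared 24 h libraries, against 5.09, 6.14 and 5.73 CPM in static 24 h libraries, and rose by 1.34 ± 0.20 (SE, adjusted p = 1.73e-04). The fourth subunit, GINS3, had a log2 change of 0.40 ± 0.21 (SE, adjusted p = 0.198) and did not pass. CDC45, the partner of GINS in the moving helicase, rose by 1.50 ± 0.25 (SE, adjusted p = 5.51e-04). MCM10, which helps the helicase start, had 0.952, 6.38 and 3.07 CPM in sheared 24 h libraries, against 0.898, 1.29 and 1.43 CPM in static 24 h libraries. The first sheared library lay inside the static range and the second was highest, and MCM10 rose by 1.38 ± 0.30 (SE, adjusted p = 0.00455).

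Of the 15 genes for polymerases, clamp and loader, 13 rose, with a median of 0.79. PRIM1, the catalytic subunit of primase, had 3.87, 20.3 and 17.95 CPM in sheared 24 h libraries, against 2.28, 4.44 and 4.50 CPM in static 24 h libraries. Its first sheared library lay inside the static range, and it rose by 1.77 ± 0.21 (SE, adjusted p = 2.34e-05), against 0.72 ± 0.17 for PRIM2, the other primase subunit. CLSPN, whose product claspin links the fork to the checkpoint, had 3.60, 9.24 and 10.1 CPM in sheared 24 h libraries, against 2.81, 1.69 and 2.92 CPM in static 24 h libraries. Every sheared library was higher, and it rose by 1.57 ± 0.26 (SE, adjusted p = 6.60e-04). RFC4, a subunit of the clamp loader, had 13.6, 33.1 and 27.7 CPM in sheared 24 h libraries, against 9.16, 10.9 and 11.4 CPM in static 24 h libraries. Its groups did not overlap, and it rose by 1.17 ± 0.17 (SE, adjusted p = 1.32e-04). The loader subunits RFC3, RFC5 and RFC2 rose by 1.32, 0.86 and 0.78.

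PCNA, the sliding clamp itself, had 24.1, 119.6 and 53.6 CPM in sheared 24 h libraries, against 27.00, 35.7 and 38.95 CPM in static 24 h libraries. The second sheared library was far above the static range and the first below it, and PCNA did not pass, with a log2 change of 0.70 ± 0.28 (SE, adjusted p = 0.124). Among the polymerase genes, POLD1, POLE and POLE2 rose by 0.88, 0.77 and 0.79, and POLA1 by 0.87. POLA2, the accessory subunit of polymerase alpha, had 0.40 and did not pass. FEN1 and LIG1, which finish Okazaki fragments, rose by 0.68 and 0.67.

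Of the 5 genes of nucleotide synthesis, 4 rose, with a median of 1.22. RRM2, the subunit of ribonucleotide reductase that varies with the cell cycle, had 100.05, 160.4 and 515 CPM in sheared 24 h libraries, against 37.00, 30.97 and 67.2 CPM in static 24 h libraries. The third sheared library was the highest of all 18, and the log2 fold change of 2.26 ± 0.20 (SE, adjusted p = 6.63e-06) was the largest of the 45. RRM1, the other subunit, rose by 1.15 ± 0.19 (SE, adjusted p = 8.02e-04). TYMS, which makes thymidylate, had 21.5, 26.1 and 50.9 CPM in sheared 24 h libraries, against 11.3, 10.5 and 14.2 CPM in static 24 h libraries. The groups did not overlap, and TYMS rose by 1.38 ± 0.16 (SE, adjusted p = 1.37e-05). TK1, which salvages thymidine, had 89.4, 219 and 245 CPM in sheared 24 h libraries, against 50.7, 76.1 and 99.2 CPM in static 24 h libraries. Its first sheared library lay inside the static range, and it rose by 1.22 ± 0.13 (SE, adjusted p = 7.50e-06). DUT, which removes dUTP, had a log2 change of 0.37 ± 0.17 (SE, adjusted p = 0.143) and did not pass.

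All 3 E2F genes rose. E2F8, the repressor, had 16.7, 20.6 and 22.8 CPM in sheared 24 h libraries, against 8.02, 7.83 and 13.9 CPM in static 24 h libraries. The sheared libraries were close to each other and above all static ones, and E2F8 rose by 1.05 ± 0.15 (SE, adjusted p = 1.83e-04). E2F1, an activator, had 10.8, 62.9 and 26.8 CPM in sheared 24 h libraries, against 10.7, 11.9 and 14.5 CPM in static 24 h libraries. The second sheared library was highest and the first lay inside the static range, and E2F1 passed only narrowly, with 1.15 ± 0.35 (SE, adjusted p = 0.0492). E2F2, also an activator, rose by 1.83 ± 0.36 (SE, adjusted p = 0.00190).

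Of the 5 chromatin and ubiquitin ligase genes, 4 rose. HELLS, a chromatin remodeller that supports DNA methylation, had 1.90, 7.63 and 6.68 CPM in sheared 24 h libraries, against 1.32, 1.11 and 0.819 CPM in static 24 h libraries. The first sheared library stood a little above the static ones and the other two far above, and HELLS rose by 2.22 ± 0.33 (SE, adjusted p = 2.29e-04). DTL, the adaptor that brings CDT1 to its ubiquitin ligase, rose by 2.19 ± 0.34 (SE, adjusted p = 6.58e-04). UHRF1, which recruits the maintenance methyltransferase, rose by 1.13 ± 0.27 (SE, adjusted p = 0.0145), and CHAF1B, of the histone chaperone CAF-1, by 0.97 ± 0.20 (SE, adjusted p = 0.00261). CHAF1A, the large subunit of the same chaperone, had 0.34 and did not pass (adjusted p = 0.249).

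The 3 pairs at 24 h differed in the size of the effect. The median ratio of sheared to static CPM over the 45 genes was 1.18, 2.88 and 2.13 in pairs 1, 2 and 3, and 33, 45 and 42 genes were higher in the sheared library. Of all genes tested, 49.1%, 47.7% and 48.3% were higher in the sheared library of these pairs. With total counts the median ratios were 1.05, 2.82 and 1.73. The MCM2-7 genes ranged from 0.703 to 1.24 in pair 1, from 2.25 to 3.36 in pair 2 and from 1.02 to 2.18 in pair 3. CDT1 was raised in every pair, with ratios of 2.67, 4.93 and 3.84, and so was RRM2, with 2.70, 5.18 and 7.66. E2F1 had ratios of 1.01, 5.30 and 1.84, and PCNA of 0.891, 3.35 and 1.37, with the second pair far above the others.

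Which sheared 24 h library had the highest level depended on the gene, and the highest level did not always mark the pair with the largest ratio. TK1 had its highest sheared level in replicate 3 but ratios of 1.76, 2.88 and 2.47 in pairs 1, 2 and 3. HELLS had its highest level in replicate 2 but ratios of 1.44, 6.87 and 8.15. Among sheared 24 h libraries, replicate 2 was highest for 35 genes, among them all MCM2-7 genes, PCNA, CDC6, CDT1 and E2F1. Replicate 3 was highest for the other 10, namely ORC1, GINS1, RFC5, PRIM2, CLSPN, RRM1, RRM2, TYMS, TK1 and E2F8. With total counts replicate 3 was highest for 6 of these, ORC1, RFC5, PRIM2, RRM1, RRM2 and TYMS. Replicate 1 was lowest for 44 genes, or 40 with total counts. The 7 RNAs listed as nuclear-retained were taken as a rough sign of how clean the cytosol was. With total counts they summed to 237, 89.9 and 379 CPM in sheared 24 h libraries, against 232, 136 and 179 CPM in static 24 h libraries. MEG3 was at 0 throughout. OIP5-AS1 and PVT1 had at least 26.8 and 12.0 CPM, with TMM factors, in every sheared 24 h library. How far the sum measures nuclear RNA was not tested, nor was the part of these RNAs in the differences between pairs.

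**Figure D4:**
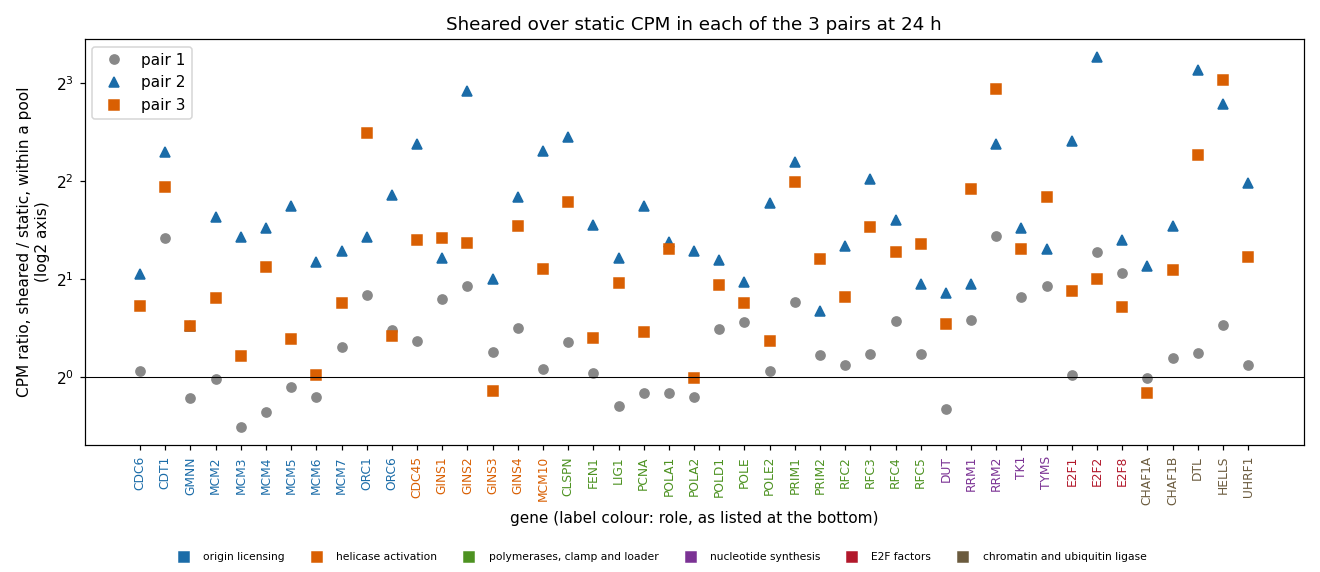
Ratio of sheared to static CPM in each of the 3 pairs at 24 h (points, log2 axis) for the 45 genes (x axis, label colour for role), with a line at a ratio of 1. Pair 1 lies lowest for most genes, with a median of 1.18, and pairs 2 and 3 have medians of 2.88 and 2.13.

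The calls at 24 h leaned on pairs 2 and 3. Without pair 2, 25 of the 45 rose and CDC6, MCM2, ORC6, MCM10, FEN1, LIG1, POLA1, POLE2, RFC2 and E2F1 lost their calls. The log2 fold changes of MCM3, MCM6, POLA2 and CHAF1A were then below 0, at -0.13, -0.09, -0.10 and -0.09. Without pair 3, 27 rose, and the genes that lost their calls were CDC6, MCM2, FEN1, LIG1, POLA1, PRIM2, E2F1 and UHRF1. Without pair 1, 41 rose. E2F1 and POLE2 also lost their calls without any 1 pair of 3 h or 12 h, and so did FEN1 and LIG1, except without 12 h replicate 3. A fit of the 6 libraries of 24 h alone called 20, while the same kind of fit called more genes than the main model at 3 h and 12 h. In the main model all times share the spread of each gene. The median ratios of the 12 h pairs, 1.29, 1.24 and 1.31, lay closer together than the 1.18, 2.88 and 2.13 of 24 h. The part of the shared spread in the 24 h calls was not tested. Without the pairing 31 rose, with MCM4 added and FEN1, LIG1, MCM2, POLE2 and PRIM2 lost. For these fits the share of all genes called is not given, so the counts describe the 45 genes only.

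At 12 h the same comparison gave a smaller difference. Of the 45 genes 6 (13.3%) rose and none fell, against 6.29% of all genes higher and 4.55% lower. The median log2 fold change was 0.30. A further 10 were higher at an unadjusted p below 0.05 in edgeR. A positive log2 fold change was seen in 40 of the 45, or in 35 with total counts, where all genes had a median of -0.16. The share of all genes is not given for these counts. By pair, 41, 33 and 41 of the 45 were higher in the sheared library, against 51.9%, 48.7% and 49.4% of all genes. Groups did not overlap in 25 genes, with sheared libraries above in 24 and below in LIG1, a count given without the share of all genes.

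CDT1 had the smallest p of the 45 at 12 h as at 24 h, with 24.1, 25.7 and 17.05 CPM in sheared 12 h libraries, against 13.7, 10.2 and 12.2 CPM in static 12 h libraries, and rose by 0.88 ± 0.17 (SE, adjusted p = 0.00427). ORC1 had 25.9, 23.97 and 16.2 CPM in sheared 12 h libraries, against 13.2, 11.6 and 11.9 CPM in static 12 h libraries, and rose by 0.82 ± 0.21 (SE, adjusted p = 0.0206). In both genes the sheared libraries lay above the static ones, with the third sheared library lowest. GINS1 had 31.8, 30.1 and 34.1 CPM in sheared 12 h libraries, against 21.8, 20.2 and 22.7 CPM in static 12 h libraries, and rose by 0.57 ± 0.13 (SE, adjusted p = 0.0105). MCM10 had 5.12, 5.45 and 7.16 CPM in sheared 12 h libraries, against 2.83, 3.90 and 3.66 CPM in static 12 h libraries, and rose by 0.77 ± 0.23 (SE, adjusted p = 0.0446). RRM2 had 324, 271 and 253 CPM in sheared 12 h libraries, against 177, 147 and 165 CPM in static 12 h libraries, and rose by 0.79 ± 0.19 (SE, adjusted p = 0.0165), with all its sheared libraries above the static range. E2F2, at 2.59, 2.56 and 4.13 CPM in sheared 12 h libraries, against 1.50, 1.58 and 1.30 CPM in static 12 h libraries, rose by 1.06 ± 0.32 (SE, adjusted p = 0.0404).

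The other genes did not pass at 12 h. CDC6 had 29.8, 23.3 and 28.96 CPM in sheared 12 h libraries, against 21.8, 25.4 and 21.5 CPM in static 12 h libraries, with a log2 fold change of 0.25. MCM2 had 28.5, 33.1 and 38.6 CPM in sheared 12 h libraries, against 31.1, 26.1 and 32.9 CPM in static 12 h libraries, with 0.15, and the groups overlapped. GMNN had 22.3, 18.4 and 18.97 CPM in sheared 12 h libraries, against 17.9, 17.6 and 17.1 CPM in static 12 h libraries, with 0.18. Its sheared libraries were slightly above the static ones. PCNA had 62.1, 51.6 and 70.6 CPM in sheared 12 h libraries, against 52.4, 53.7 and 48.4 CPM in static 12 h libraries, with 0.24, and CLSPN 14.8, 11.3 and 15.4 CPM in sheared 12 h libraries, against 12.2, 11.05 and 11.4 CPM in static 12 h libraries, with 0.25, and both overlapped. TYMS had 48.96, 50.5 and 44.1 CPM in sheared 12 h libraries, against 35.9, 35.6 and 40.8 CPM in static 12 h libraries, with 0.35, and E2F1 29.4, 41.3 and 38.9 CPM in sheared 12 h libraries, against 22.7, 24.1 and 28.5 CPM in static 12 h libraries, with 0.54. In these 2 genes the groups did not overlap (adjusted p = 0.128 and 0.321). LIG1, the DNA ligase of the lagging strand, had 12.7, 13.8 and 12.6 CPM in sheared 12 h libraries, against 15.3, 15.98 and 18.7 CPM in static 12 h libraries, with -0.35 and an adjusted p of 0.272.

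The 12 h calls rested on the pairing and on each pair of that time. With total counts CDT1, ORC1 and RRM2 kept theirs and E2F2, GINS1 and MCM10 did not. Without 12 h replicate 1, CDT1 was the 1 gene that rose, without replicate 2 none did, and without replicate 3 there were 3, CDT1, ORC1 and GINS1. Without the pairing none rose, and the adjusted p of CDT1 was 0.0887. E2F2 and MCM10 also lost their calls without any 1 pair of 3 h. Counts were higher in other fits, with 13 genes in a fit of the 12 h libraries alone and 10, 11 and 13 without 24 h replicates 1, 2 and 3. These counts, too, are given without the share of all genes called.

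At 3 h no difference between sheared and static cells passed the test in the replication genes. None of the 45 was called the test in either direction, none had an unadjusted p below 0.05 in edgeR, and DESeq2 called none. Of all genes, 1.12% were higher and 0.342% lower. Log2 fold changes ran from -0.28 to 0.23 with a median of -0.06, and 31 were negative. By pair, 15, 18 and 16 of the 45 were higher in the sheared library, against 50.7%, 51.6% and 52.4% of all genes. A fit of the 3 h libraries alone called 2 genes lower, DTL and UHRF1.

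In most genes the 3 h groups overlapped. MCM2 had 118, 128 and 101 CPM in sheared libraries and 127, 145 and 105 CPM in static libraries, and PCNA 180.5, 199.6 and 174 CPM in sheared libraries and 181, 189 and 156 CPM in static libraries. CDC6 had 74.8, 85.1 and 66.9 CPM in sheared libraries and 74.8, 79.9 and 68.4 CPM in static libraries, and E2F1 92.3, 86.7 and 84.2 CPM in sheared libraries and 93.5, 94.1 and 82.03 CPM in static libraries. In all 4 genes the groups overlapped. GMNN had 56.9, 60.3 and 55.3 CPM in sheared libraries and 55.3, 59.01 and 58.9 CPM in static libraries, and TYMS 50.3, 50.8 and 51.2 CPM in sheared libraries and 46.4, 48.7 and 52.2 CPM in static libraries. RRM2 had 299, 334 and 321 CPM in sheared libraries and 302, 298 and 329 CPM in static libraries, and CLSPN 42.7, 52.8 and 45.98 CPM in sheared libraries and 48.9, 56.9 and 55.1 CPM in static libraries. These overlapped as well. In 5 genes the groups did not overlap. CDT1 had 40.4, 38.4 and 37.6 CPM in sheared libraries and 31.8, 35.1 and 32.2 CPM in static libraries, a log2 fold change of 0.23 ± 0.16, and GINS2 was also higher in each sheared library, with 0.12 ± 0.21. MCM10 had 21.4, 22.7 and 23.4 CPM in sheared libraries and 24.3, 27.00 and 27.7 CPM in static libraries, a log2 fold change of -0.23 ± 0.20, and POLE and UHRF1 were lower in each sheared library, with -0.18 ± 0.12 and -0.21 ± 0.24. None of these 5 passed the test, and their number is given without the share of all genes whose groups did not overlap.

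**Figure D5:**
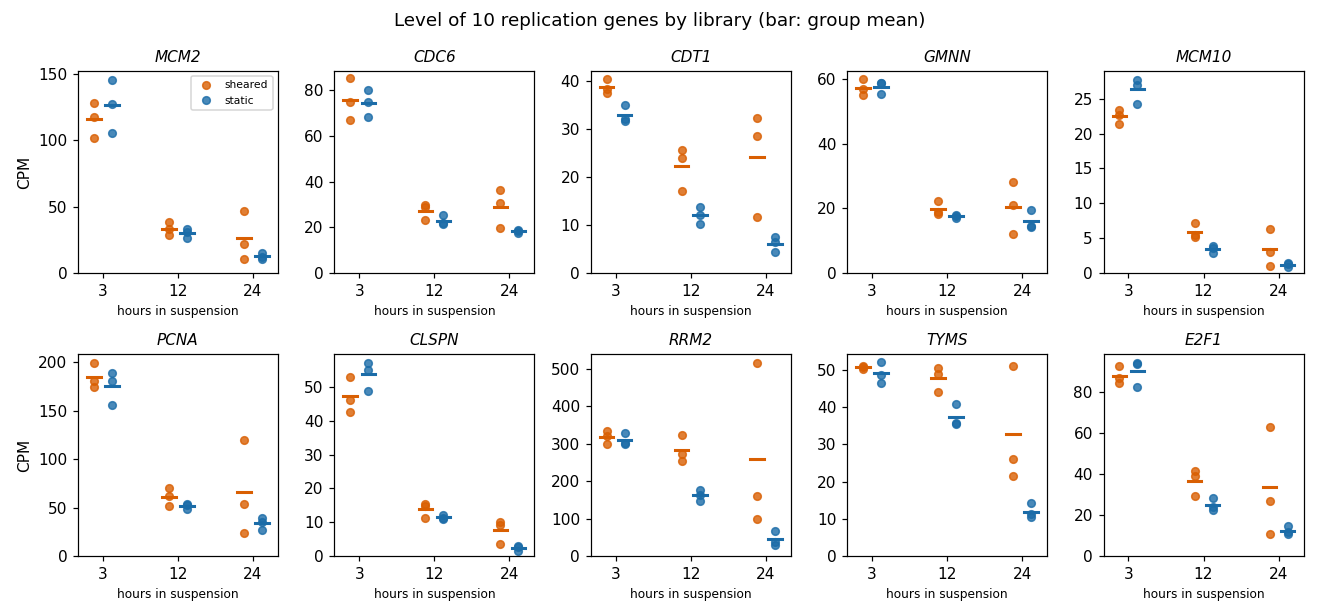
CPM of 10 replication genes (panels) in sheared and static libraries (points) at 3, 12 and 24 h in suspension, with bars at the group means. Sheared and static points mingle at 3 h for most genes, and all fall by 12 h in static cells. At 24 h the sheared points spread more widely than the static ones, mostly above them. The lowest sheared point lies below all static points in MCM2, GMNN and PCNA, and inside the static range in MCM10 and E2F1.

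Whether the shear effect differed between times was tested as a difference of effects in the same model. Between 24 h and 12 h, 6 of the 45 genes differed, all with the larger effect at 24 h, against 0.586% of all genes in that direction and 0.079% in the other. HELLS differed most, by 2.10 ± 0.42 (SE, adjusted p = 0.0262), with an effect of 2.22 at 24 h and 0.12 at 12 h. RRM2 differed by 1.47 ± 0.27 (SE, adjusted p = 0.0238), PRIM1 by 1.30 ± 0.28 (SE, adjusted p = 0.0385), E2F8 by 1.10 ± 0.21 (SE, adjusted p = 0.0190), TYMS by 1.02 ± 0.21 (SE, adjusted p = 0.0314) and TK1 by 0.93 ± 0.18 (SE, adjusted p = 0.0217). The difference was positive in 44 of the 45 genes, a count given without the share of all genes, with a median of 0.62. With total counts E2F8 and PRIM1 did not pass (adjusted p = 0.0516 and 0.0794). Without the pairing, or without 12 h replicate 2 or 3, none of these calls held. Without 12 h replicate 1 only that of E2F8 held, without 24 h replicate 2 only that of TYMS, and without 24 h replicate 3 those of E2F8, TK1 and RRM2. Without 24 h replicate 1, 20 genes differed. Without 3 h replicates 1, 2 and 3, 3, 2 and 3 of the 6 calls held. The share of all genes called in these fits is not given.

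Between 12 h and 3 h no gene differed, against 0.514% of all genes with a larger effect at 12 h and 0.895% with a smaller one. At an unadjusted p below 0.05 in edgeR there were 12, all with the larger effect at 12 h, and DESeq2 called 1, GINS1. The share of all genes is not given for these counts. The median difference was 0.38. These times also differ in batch date.

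In static cells, almost every replication transcript was lower at the later times in suspension. In static 12 h libraries, set against static 3 h libraries, 44 of the 45 genes fell and none rose, with a median log2 fold change of -1.49, against 22.9% of all 14804 genes lower and 21.7% higher. E2F8 was the exception (-0.02 ± 0.19), with 29.2, 32.3 and 28.3 CPM at 3 h, 32.5, 31.4 and 25.1 CPM at 12 h and 8.02, 7.83 and 13.9 CPM at 24 h. The 12 h libraries lay below the 3 h ones in all 44, and time and batch date coincide in this step, so they cannot be told apart. In static 24 h libraries, set against static 12 h libraries of the same batch date, 40 fell and none rose, with a median of -1.03, against 15.6% lower and 16.9% higher. CDC6, MCM5, GMNN, E2F2 and CHAF1A did not pass, and the groups overlapped only in MCM5 and GMNN. For neither step is a share of all genes given for groups that did not overlap. At 12 h the genes kept a median of 35.7% of their 3 h mean in static cells, and at 24 h 17.6%, from 2.71% for DTL to 41.6% for DUT. By library, sheared 24 h replicates 1, 2 and 3 kept medians of 20.1%, 51.4% and 36.7% of the sheared 3 h mean, against 15.4%, 18.1% and 20.8% of the static 3 h mean in static 24 h replicates. RRM2 kept 31.5%, 50.5% and 162% in the sheared replicates, with the third far above the others.

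The share of the fall seen in each step differed between genes. The step from 3 h to 12 h spans the change of batch date, the steps differ in length, and no test compared them. The order of steps is thus a description, in which time and batch date cannot be told apart. The step by 12 h was the larger in 31 of the 45 genes, and in 10 of the 11 origin licensing genes, all but ORC6. In static libraries MCM2 had 127, 145 and 105 CPM at 3 h, 31.1, 26.1 and 32.9 CPM at 12 h and 10.4, 15.02 and 12.4 CPM at 24 h, with log2 changes of -2.07 by 12 h and -1.27 thereafter. CDC6 had 74.8, 79.9 and 68.4 CPM at 3 h, 21.8, 25.4 and 21.5 CPM at 12 h and 18.6, 17.6 and 18.5 CPM at 24 h, with -1.70 by 12 h and -0.34 thereafter, the second of which did not pass. GMNN had 55.3, 59.01 and 58.9 CPM at 3 h, 17.9, 17.6 and 17.1 CPM at 12 h and 14.2, 19.6 and 14.7 CPM at 24 h, with -1.72 and then -0.13. The 24 h libraries of GMNN lay on both sides of the 12 h libraries. MCM4, MCM6 and MCM3 changed by -2.10, -2.15 and -1.94 by 12 h, and by -1.03, -0.52 and -0.77 thereafter. At the fork, PCNA had 181, 189 and 156 CPM at 3 h, 52.4, 53.7 and 48.4 CPM at 12 h and 27.00, 35.7 and 38.95 CPM at 24 h, with -1.77 and then -0.61, and FEN1 changed by -1.89 and then -0.78. E2F1 had 93.5, 94.1 and 82.03 CPM at 3 h, 22.7, 24.1 and 28.5 CPM at 12 h and 10.7, 11.9 and 14.5 CPM at 24 h, with -1.84 and then -1.03.

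Nucleotide synthesis genes had the larger step after 12 h in 4 of 5, all but DUT, with the same limit of batch date and no test. TYMS had 46.4, 48.7 and 52.2 CPM at 3 h, 35.9, 35.6 and 40.8 CPM at 12 h and 11.3, 10.5 and 14.2 CPM at 24 h, with -0.40 by 12 h and -1.65 thereafter. RRM2 had 302, 298 and 329 CPM at 3 h, 177, 147 and 165 CPM at 12 h and 37.00, 30.97 and 67.2 CPM at 24 h, with -0.93 and then -1.86. RRM1 changed by -0.76 and then -1.49. At 12 h TYMS, RRM2 and RRM1 still held 76.2%, 52.6% and 59.4% of their 3 h mean, and at 24 h 24.4%, 14.6% and 21.3%. E2F8 followed the same order, with -1.58 after 12 h, and so did GINS1, GINS2 and GINS4, with -1.41, -1.98 and -1.70. Of the calls by 12 h, that of TYMS held in 5 of 9 fits that each left out 1 static library, and that of TK1 in 7 of 9.

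Further genes are given for both steps. CLSPN had 48.9, 56.9 and 55.1 CPM at 3 h, 12.2, 11.05 and 11.4 CPM at 12 h and 2.81, 1.69 and 2.92 CPM at 24 h, with -2.22 and then -2.22. MCM10 had 24.3, 27.00 and 27.7 CPM at 3 h, 2.83, 3.90 and 3.66 CPM at 12 h and 0.898, 1.29 and 1.43 CPM at 24 h, with -2.92 and then -1.52. DTL had 66.4, 75.4 and 57.9 CPM at 3 h, 10.4, 8.78 and 7.03 CPM at 12 h and 1.44, 1.99 and 2.00 CPM at 24 h, with -2.93 and then -2.27, and UHRF1 changed by -2.40 and then -1.37. CDT1 had 31.8, 35.1 and 32.2 CPM at 3 h, 13.7, 10.2 and 12.2 CPM at 12 h and 4.37, 6.55 and 7.47 CPM at 24 h, with -1.46 and then -0.98. HELLS had 20.02, 23.2 and 20.9 CPM at 3 h, 5.83, 6.76 and 5.44 CPM at 12 h and 1.32, 1.11 and 0.819 CPM at 24 h, with -1.83 and then -2.49, the largest second fall of the 45.

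Other genes of the same pathways give the setting. Of 35 further replication genes, 25 (71.4%) rose and none fell in sheared cells at 24 h, with a median of 0.62. Of all genes, 9.13% were higher and 8.07% lower. Those with the smallest p included ASF1B (1.49), a histone chaperone, and RNASEH2A (0.99), which cuts RNA from RNA-DNA hybrids. The others were DCK (0.86), a deoxynucleoside kinase, and DONSON (0.96), a replication fork protein. At 12 h DONSON alone rose (0.60), which is 2.86% of the list, against 6.29% of all genes. Its call was lost without the pairing and without 12 h replicate 1 or 3 (adjusted p = 0.122, 0.122 and 0.0551). At 3 h none passed. In static cells 30 of the 35 (85.7%) fell from 3 h to 12 h and 28 (80.0%) from 12 h to 24 h, against 22.9% and 15.6% of all genes.

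Of 27 genes that control the G1/S step, 7 (25.9%) rose and 3 (11.1%) fell at 24 h, against 9.13% and 8.07% of all genes. MYBL2, a transcription factor of the cycle, rose by 1.55 ± 0.14 and CDK2, the kinase of the G1/S step, by 0.80 ± 0.12, and LIN54 and LIN9, subunits of the complex that MYBL2 joins, by 0.83 and 0.76. The others that rose were CCNE2 (1.09) and CCNE1 (0.48), genes of E-type cyclins, and CDKN1B (0.71), a CDK inhibitor gene. The 3 that fell were E2F6 (-0.59), CDKN1A (-0.51) and E2F3 (-0.46). These 3, CCNE2, CCNE1 and CDKN1B were named after their values were seen. The calls of CCNE1 and CDKN1B did not hold without the pairing, without 24 h replicate 1 or 3, without any 1 pair of 3 h or without 12 h replicate 1, and CCNE1 also lost its call without 24 h replicate 2 or 12 h replicate 2. CCNE2 lost its call without 24 h replicate 2 or 3, and CCNE2 and CCNE1 with total counts. Without the pairing none of the calls of E2F6, CDKN1A and E2F3 held. E2F6 also lost its call without 24 h replicate 3, CDKN1A without 24 h replicate 1 or 2, and E2F3 without any 1 pair of 24 h or 3 h or without 12 h replicate 1. At 12 h 4 (14.8%) rose, against 6.29% of all genes. They were CCNE1 (0.97), which encodes cyclin E1, MYBL2 (0.74), CDK2 (0.58) and TFDP1 (0.42), the dimer partner of E2F factors. None of these 4 passed without the pairing, and TFDP1 did not pass without any 1 of the 12 h pairs. At 3 h 1 gene (3.7%) passed, against 1.12% of all genes higher. It was CDKN1A, which encodes the CDK inhibitor p21, higher in sheared cells by 0.68 ± 0.13 (SE, adjusted p = 0.00937). Its effect at 12 h was lower than at 3 h by a log2 difference of -0.85 (adjusted p = 0.0311). The call at 3 h was lost without any 1 of the 3 h pairs and without the pairing (adjusted p between 0.0708 and 0.564). That of the difference was lost without the pairing, any 1 of the 3 h pairs, or 12 h replicate 1 or 2. In static cells 17 (63.0%) fell and 1 (3.7%) rose from 3 h to 12 h, against 22.9% and 21.7% of all genes. The smallest p was for the fall of CDC25A (-2.46), the phosphatase that activates CDK2. From 12 h to 24 h, 12 (44.4%) fell and 2 (7.41%) rose, against 15.6% and 16.9% of all genes. The 1 that rose by 12 h was CDKN1B (0.59), another CDK inhibitor gene, and the 2 that rose thereafter were CCNE1 (1.14) and CDKN1A (0.70), all named after their values were seen.

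Mitosis genes, which act after S phase, were followed as a list of 30. In static cells 3 (10.0%) fell from 3 h to 12 h, MAD2L1 (-0.77), AURKB (-0.75) and CDC20 (-0.46), and 1 (3.33%) rose, HMMR (0.40). Of all genes, 22.9% fell and 21.7% rose in that step. The mitosis genes had a median of -0.17, while the replication genes had a median of -1.49. From 12 h to 24 h 28 of the 30 (93.3%) fell, with a median of -1.39, against 15.6% of all genes lower. Their summed level was 3491 to 3891 CPM in static 3 h libraries, 3112 to 3543 CPM in static 12 h libraries and 959 to 1438 CPM in static 24 h libraries, with total counts. In sheared against static cells 6 (20.0%) of the mitosis genes fell at 3 h, against 0.342% of all genes, and none of the replication genes passed there. At 12 h 10 (33.3%) of the mitosis genes rose, against 6.29% of all genes. At 24 h all 30 rose, with a median of 1.30, against 9.13% of all genes higher. No test of the difference between the lists was made.

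In the authors' deposited tables of sheared over static cells, none of the 45 genes had an adjusted p below 0.05 at 3 h, 3 were higher (CDT1, GINS1 and E2F2) and none lower at 12 h, and 35 were higher and none lower at 24 h. These 35 include MCM4 (adjusted p = 0.0188) and not POLE2 (0.0581), the reverse of the 35 called above. Over all genes those tables hold 118 higher and 23 lower at 3 h, 448 and 350 at 12 h, and 862 and 483 at 24 h. Genes with an adjusted p numbered 14827 at 3 h, 14408 at 12 h and 14408 at 24 h.

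Some of the 45 genes overlap others in the genome, and whether reads were counted by strand is not given in the sources used here, so reads in shared stretches cannot be told apart. TYMS overlaps ENOSF1, whose own log2 fold change at 24 h was 0.13 (adjusted p = 0.641), and the antisense TYMSOS (0.86, adjusted p = 0.0563). ORC1 overlaps PRPF38A (0.12), RFC5 overlaps WSB2 (0.08), CHAF1A overlaps UBXN6 (0.07), PRIM2 overlaps RAB23 (-0.19) and MCM7 overlaps AP4M1 (-0.54). None of these partners passed the test at 24 h.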

How the data were processed

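Cytosolic RNA of PC-3 cells was sequenced in 18 libraries, 3 for each of 6 groups of treatment and time, grouped as the labels give them. The authors' deposited table holds raw read counts per NCBI Gene ID, and per the submitters' processing notes STAR aligned the reads to GRCh38.p13 and DESeq2 made the tests. For the counter, its strand setting and all versions, the labels hold no entry. The authors' deposited tables of sheared over static cells hold log2 fold changes and adjusted p-values, per the file headers. At 3 h the count columns were matched to the labels by time and letter.

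Symbols came from RefSeq for 27745 of 28395 gene IDs, and all 45 genes matched. The genes, the role groups and the further lists were chosen with earlier results of these data known. Genes were kept by filterByExpr (minimum count 10, minimum total 15), which left 15189. For 1 gene of the marker lists, no result is reported here. Tests were run in R 4.3.3 by edgeR 4.0.16, scaled by TMM, with robust estimation in its legacy quasi-likelihood F test. All 18 libraries entered 1 model, in which 9 pools were blocks and shear had an effect of its own at 3, 12 and 24 h (6 residual degrees of freedom). Static cells were compared over time in a model of the 9 static libraries and 14804 genes. The Benjamini-Hochberg adjustment ran over all genes, with calls at 0.05, and standard errors were taken as the absolute log2 fold change divided by the root of F. An exact permutation of 3 against 3 that ignores the pairing cannot give a p below 0.1, and one within the pairs has a higher floor. Neither was made. The fits were tested on simulated data. Depth ran from 16400487 to 25862360 counts per library.

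Same-numbered libraries of a time share a pool, per the series' design text in the labels, which is why pool was a block. As a check, the correlation across genes of their deviations from the group mean was 0.0881, 0.165 and 0.299 at 3 h, 0.245, -0.148 and 0.199 at 12 h and 0.435, 0.504 and 0.379 at 24 h. Between sheared and static libraries of unlike number it was -0.242 to 0.130 at 3 h and -0.385 to 0.234 at 12 h. At 24 h it was -0.296 to -0.0924, and only there did all same-numbered libraries stand above the others.

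All 45 genes may be named. Values of each library are given for at most 12 genes per direction past the threshold, by p, and for MCM2, MCM10, CDC6, CDT1, GMNN, PCNA, RRM2, TYMS, E2F1 and CLSPN in each comparison of treatments, and of other lists for up to 4 genes by p. Alternatives were another size factor method, total counts, no filter, DESeq2 1.42.0, no pairing, fewer libraries and a shorter promoter window.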

Additional observations from a re-analysis of the deposited data

Results flagged for a closer look

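The effect of shear differed between 24 h and 12 h, by the test of the difference itself, in 6 of the 45 genes, each with the larger effect at 24 h. The log2 differences were 1.10 for E2F8, 0.93 for TK1, 1.47 for RRM2, 2.10 for HELLS, 1.02 for TYMS and 1.30 for PRIM1, with adjusted p between 0.0190 and 0.0385. With total counts E2F8 and PRIM1 did not pass (adjusted p = 0.0516 and 0.0794). Without the pairing, or without 12 h replicate 2 or 3, none of the 6 calls held. In the 24 h pairs, the sheared library was higher in 3 of 3 pairs for each of them, as in 32 of the 45 genes. These pairs entered the test itself and are no separate support. No group had 4 or more libraries, so single libraries were not screened.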

How the results depend on the processing

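The number of the 45 genes that rose at 24 h, 35, stayed between 29 and 39 with either other scaling, no filter, DESeq2 or no pairing, was 20 with the libraries of that time alone, and ran from 25 to 41 without 1 pair. At 12 h, where 6 rose, it was 3 with total counts, 14 with no filter on low counts, 0 without the pairing, 13 with the libraries of that time alone, and 0 to 13 without 1 pair. At 3 h 2 genes were lower with the libraries of that time alone. For 24 h against 12 h, where 6 differed, there were 17 with no filter, 14 in DESeq2, 5 with total counts (E2F8 and PRIM1 lost, RRM1 added), 0 without the pairing (the replicate block), and 0 to 20 without 1 pair. For 12 h against 3 h, where none differed, there were 5 with no filter, 1 in DESeq2, and 0 to 4 without 1 pair. Genes with few counts in all libraries enter the fit without a filter. All these counts are of the 45 genes, without the share of all genes called in the same fit. The counts for static cells over time moved by less than 1.5 times in every alternative tried.

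A few named genes changed sign. At 12 h, total counts gave HELLS -0.031 and MCM2 -0.0021. At 24 h, leaving out 1 pair gave -0.090 to 0.61 for CHAF1A, -0.13 to 0.84 for MCM3, -0.092 to 0.62 for MCM6 and -0.099 to 0.66 for POLA2, each below 0 without replicate 2 alone. E2F8, in static cells at 12 h over 3 h, had 0.0018 with total counts and -0.088 to 0.10 without 1 library. In a model of all 18 libraries with no pairing, RRM2, TK1 and TYMS did not pass in static cells at 12 h over 3 h, nor did DUT, E2F1, FEN1, GINS3, MCM3, MCM6, MCM7, PCNA, POLA2, POLD1 and RFC2 at 24 h over 12 h. The cause of these changes was not tested. With 250 bases before the start alone, the E2F words stood in 41.5% of the promoters, against 56.1%. Genes at a few CPM, such as MCM10, HELLS and E2F2, rest on the fewest counts.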
